A study of Mus musculus with 26 samples.

Results

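The renin-angiotensin-aldosterone system was examined in the left ventricle of normotensive and hypertensive mice through 9 genes of the 40413 in the deposited count table. The genes were chosen by symbol: Agt, Ren1, Atp6ap2, Ace, Lnpep, Agtr1a, Nr3c2, Nr3c1 and Hsd11b1. All 9 had a row, and 8 passed the filter on low counts. Ren1 did not.

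Polyadenylated RNA was sequenced from left ventricles of 26 adult mice, of which 25 are compared here. BPN/3J is a strain with normal blood pressure and BPH/2J a strain with high blood pressure. Each strain received vehicle or Cmpd17b for 28 days. Cmpd17b activates formyl peptide receptors, which sense bacterial and mitochondrial peptides and regulate inflammation. The dose of Cmpd17b was 50 mg/kg/day, given into the peritoneum. The labels gave 7 BPN/3J mice with vehicle (BPN_vehicle), 5 BPN/3J mice with Cmpd17b (BPN_Cmpd17b), 7 BPH/2J mice with vehicle (BPH_vehicle) and 7 BPH/2J mice with Cmpd17b (BPH_Cmpd17b), of which 6 were used. Each title names an animal, and 1 library was counted as 1 mouse. Sex and exact age were not in the labels. A strain difference in these data and a difference in blood pressure cannot be told apart.

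Total counts ran from 25476100 to 48648200 per library. The library labelled BPH_Cmpd17b replicate 7 held 16.3 CPM (count scaled to the library's depth) of Myh6, the main heavy chain of mouse heart myosin, and 24939 CPM of the kidney transcript Kap. It was left out of every value unless stated. In the other 25 libraries Myh6 ranged from 13252 to 23206 CPM and the 4 ventricular cardiomyocyte markers summed to 28249 to 45440 CPM. The labels give 2 batches. Batch 2 held 5 of the 25 libraries: 2 of BPN_vehicle, 2 of BPH_vehicle, 1 of BPH_Cmpd17b (replicate 6) and none of BPN_Cmpd17b. Every comparison therefore carried a batch term. Other libraries stood apart before any comparison. BPN_vehicle replicate 7 had a summed endothelial marker level of 1133 CPM, against 380 to 577 CPM in the other 24. BPH_Cmpd17b replicate 6 had the lowest cardiomyocyte sum (28249 CPM) and a fibroblast sum of 1268 CPM. In BPN_vehicle replicates 1, 2 and 4 hepatocyte transcripts summed to 497, 777 and 98.6 CPM. In bulk tissue, fewer cells of a type and less RNA per cell cannot be told apart.

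In the classical cascade, angiotensinogen (Agt) is cut by renin (Ren1) to angiotensin I. Angiotensin-converting enzyme (Ace) then makes angiotensin II, which acts through the type 1 receptor (Agtr1a) to raise vascular tone and to drive aldosterone release from the adrenal cortex. Circulating angiotensinogen comes mainly from liver and renin from juxtaglomerular cells of the kidney, while the heart can take both up from plasma and also make some angiotensinogen locally. Aldosterone and glucocorticoids bind the mineralocorticoid receptor (Nr3c2), and glucocorticoids also bind the glucocorticoid receptor (Nr3c1). Hsd11b1 regenerates active glucocorticoid inside cells. Atp6ap2 is the prorenin receptor and an accessory subunit of the vacuolar proton pump. Lnpep is an aminopeptidase that cleaves oxytocin and vasopressin and binds angiotensin IV.

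The upstream sequences of the substrate and of its enzyme are shown because Agt carried the strongest difference among these genes and Ren1 lay at the limit of detection. Both are the 250 bases before the RefSeq start (build GRCm38.p6, written 5′ to 3′ on the gene's strand). The counts rest on build GRCm39, so the coordinates serve only to place the sequences. The Agt window is chr8:124569707-124569956 on the minus strand and the Ren1 window chr1:133350424-133350673 on the plus strand. Capitals mark the letters of a TATA box (TATAAA).
Agt: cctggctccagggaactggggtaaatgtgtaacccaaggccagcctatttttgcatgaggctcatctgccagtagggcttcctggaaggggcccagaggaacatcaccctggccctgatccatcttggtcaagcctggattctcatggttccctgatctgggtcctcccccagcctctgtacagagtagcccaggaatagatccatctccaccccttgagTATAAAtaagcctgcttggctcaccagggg
Ren1: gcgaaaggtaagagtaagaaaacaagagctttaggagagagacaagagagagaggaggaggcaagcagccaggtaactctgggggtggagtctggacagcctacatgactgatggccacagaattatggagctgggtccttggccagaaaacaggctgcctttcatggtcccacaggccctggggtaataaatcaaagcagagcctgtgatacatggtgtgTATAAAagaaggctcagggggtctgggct
The match lay at -30 to -25 from the Agt start and at -29 to -24 from the Ren1 start. TATAAA, searched on both strands, was found in 12.4% of 32851 RefSeq windows of the same length. The steroid receptor half-site AGAACA, present in 16.1% of windows, and CCAAT, present in 33.8%, were not matched in either sequence. Of the 9 genes, 7 had an entry. CCAAT was matched in the windows of Ace, Atp6ap2, Hsd11b1 and Nr3c2, AGAACA in that of Atp6ap2, and TATAAA on the opposite strand in 1 of the 2 Ace windows. These matches describe letters only.

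Counts were tested with edgeR's quasi-likelihood test, and a gene is called when its p adjusted over all genes tested is under 0.05. Log2 differences are BPH/2J minus BPN/3J, or Cmpd17b minus vehicle. Where groups are said not to overlap, the share of all genes that separate in the same way was not counted. Across the 8 genes tested, the strain comparison under vehicle called 2, Agt lower and Agtr1a higher in BPH/2J. In the same comparison 18.9% of all 15543 genes tested were called, so 2 of 8 genes is close to the background. Under Cmpd17b the strain comparison called Agt alone, against 14.1% of all genes. No gene of the 9 was called for an effect of Cmpd17b in either strain or for the interaction of strain and drug, comparisons in which 0% of all genes were called by edgeR's quasi-likelihood test. In those 3 comparisons 287 genes (BPH/2J), 1506 genes (BPN/3J) and 595 genes (interaction) had an unadjusted p under 0.05. DESeq2 called 0, 1 and 0 genes and limma voom called none. The median log2 difference over the 8 genes was 0.09 under vehicle and 0.08 under Cmpd17b, with medians over all genes of 0.00 and 0.01.

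**Figure D1:**
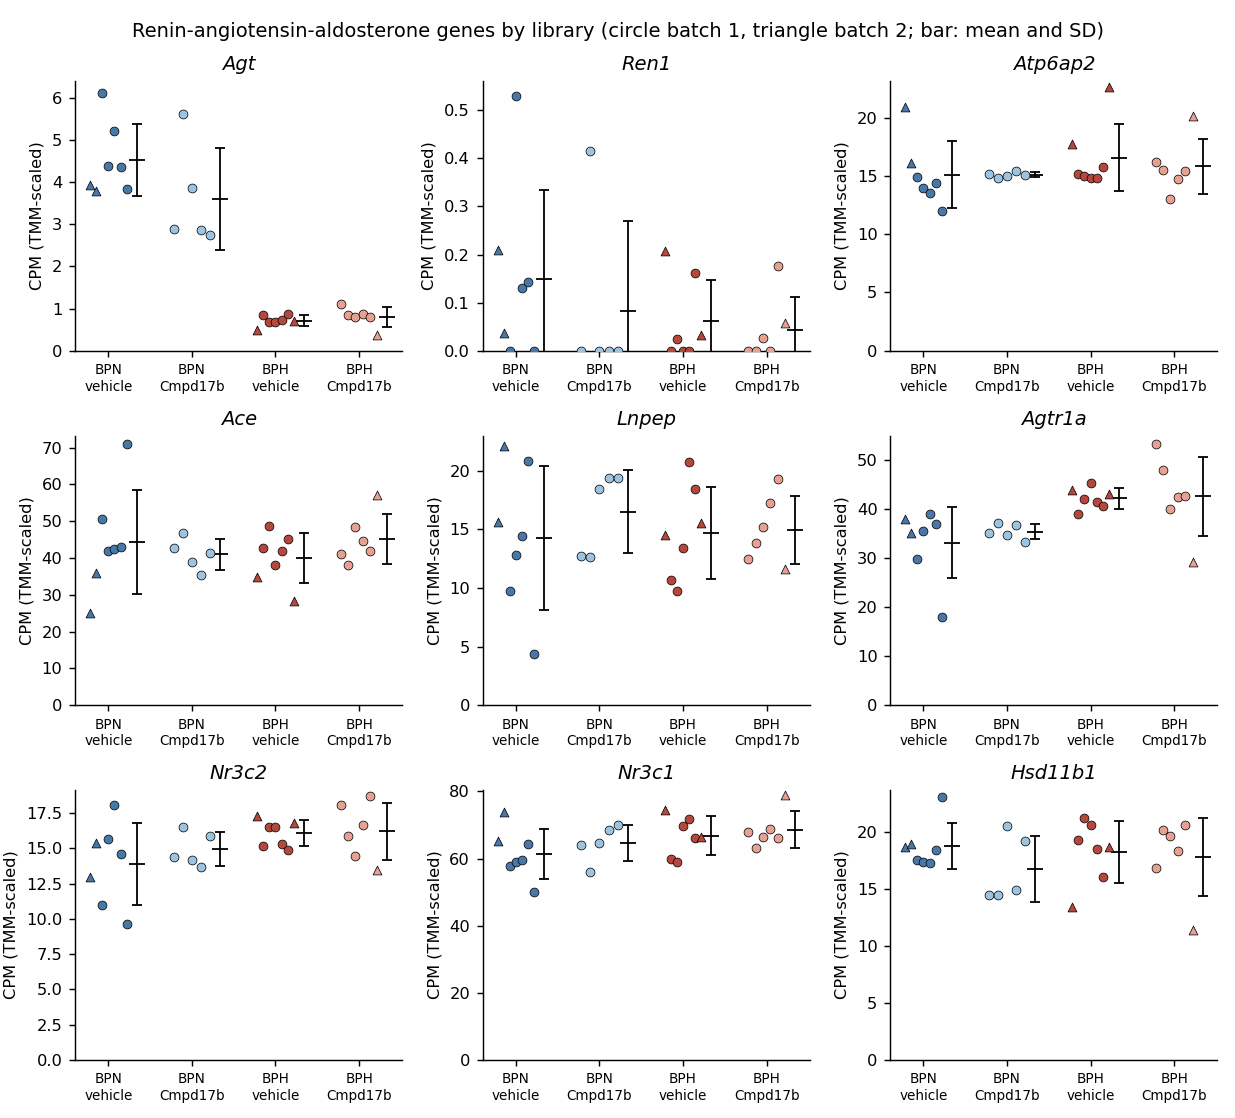
CPM (scaled by edgeR's TMM factors, linear axis from 0) of the 9 genes in each of 25 libraries, by strain and treatment. Circles are batch 1, triangles batch 2, and bars give mean and SD; the Agt points of both BPH/2J groups (0.378 to 1.12 CPM) lie below every BPN/3J point (2.74 to 6.11 CPM).

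Agt, the only known precursor of the angiotensins, was several-fold lower in hypertensive ventricles. In BPN_vehicle it ranged from 3.80 to 6.11 CPM, with a median of 4.35. In BPH_vehicle it ranged from 0.482 to 0.868 CPM, with a median of 0.707. Every BPH/2J library lay below every BPN/3J library. The means were 4.52 ± 0.856 CPM (SD, n = 7) and 0.713 ± 0.126 CPM (SD, n = 7). This was a log2 difference of -2.66 ± 0.18 (SE), 6.33-fold lower in BPH/2J (edgeR quasi-likelihood test, adjusted p = 2.9e-12). It ranked 82 by p among all genes tested. The counts behind these levels were 105 to 235 in BPN_vehicle and 14 to 43 in BPH_vehicle, so the level is low in both strains.

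The difference was present under Cmpd17b too. The BPN_Cmpd17b libraries had 2.89, 5.62, 3.87, 2.87 and 2.74 CPM. The BPH_Cmpd17b libraries ranged from 0.378 to 1.12 CPM, with a median of 0.833, and all 6 lay below all 5 of BPN_Cmpd17b. The means were 3.60 ± 1.22 CPM (SD, n = 5) and 0.805 ± 0.239 CPM (SD, n = 6), a log2 difference of -2.09 ± 0.20 (SE), 4.27-fold lower (edgeR adjusted p = 4.5e-09). With the kidney-like library included, the difference was -1.0 with an edgeR adjusted p of 0.505. That library alone had 26.9 CPM of its total counts from Agt.

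Within batch 1 the vehicle difference in Agt was -2.64 (edgeR adjusted p = 8.4e-10) and within batch 2 it was -2.68 (adjusted p = 0.00109). The batch 2 comparison held 2 libraries per strain. Its BPN_vehicle libraries were replicates 1 and 2, with hepatocyte sums of 497 and 777 CPM. Under Cmpd17b it was -2.01 within batch 1 (adjusted p = 8.9e-08), and batch 2 held 1 strain only. Leaving out each library in turn kept both calls, with differences from -2.73 to -2.60 under vehicle and from -2.20 to -1.88 under Cmpd17b.

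Liver makes most circulating angiotensinogen, and hepatocyte markers also differed between the strains. Of 12 such markers, 7 were tested and 6 were lower in BPH/2J under vehicle (Ahsg, Alb, Apoa1, Apoa2, Serpina3k and Ttr). Their sum ranged from 3.21 to 777 CPM in BPN_vehicle, 2.57 to 12.3 in BPH_vehicle, 2.77 to 12.2 in BPN_Cmpd17b and 2.40 to 6.15 in BPH_Cmpd17b. Albumin was at 0 in 2 BPN_vehicle and 3 BPH_vehicle libraries. The 3 libraries with the highest sums (497, 777 and 98.6 CPM) had 3.92, 3.80 and 4.38 CPM of Agt. The other 4 of their group had 3.84 to 6.11 CPM, a range that overlaps those levels. The highest Agt level (6.11 CPM) was in a library with a hepatocyte sum of 17.5 CPM. Without those 3 libraries the vehicle difference in Agt was -2.60 (edgeR adjusted p = 2.2e-09). Under Cmpd17b, where no hepatocyte marker was called and the sums overlapped, it was -2.09. Adipocytes, another source of angiotensinogen, gave marker sums of 25.8 to 42.8 CPM in BPN_vehicle and 28.6 to 33.8 in BPN_Cmpd17b. The sums were 16.7 to 26.1 CPM in BPH_vehicle and 18.7 to 25 in BPH_Cmpd17b. Of 7 adipocyte markers 3 were tested, and Cidea was lower in BPH/2J in both comparisons. Nearly all of the sum was Cidea (31.7 ± 5.63 CPM in BPN_vehicle and 20.7 ± 2.44 CPM in BPH_vehicle, SD, n = 7 each). Adipoq (0.372 and 0.366 CPM) and Cfd (0.784 and 0.874 CPM) were low in both groups and were not called. The part of these cells in the Agt difference was not tested.

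**Figure D2:**
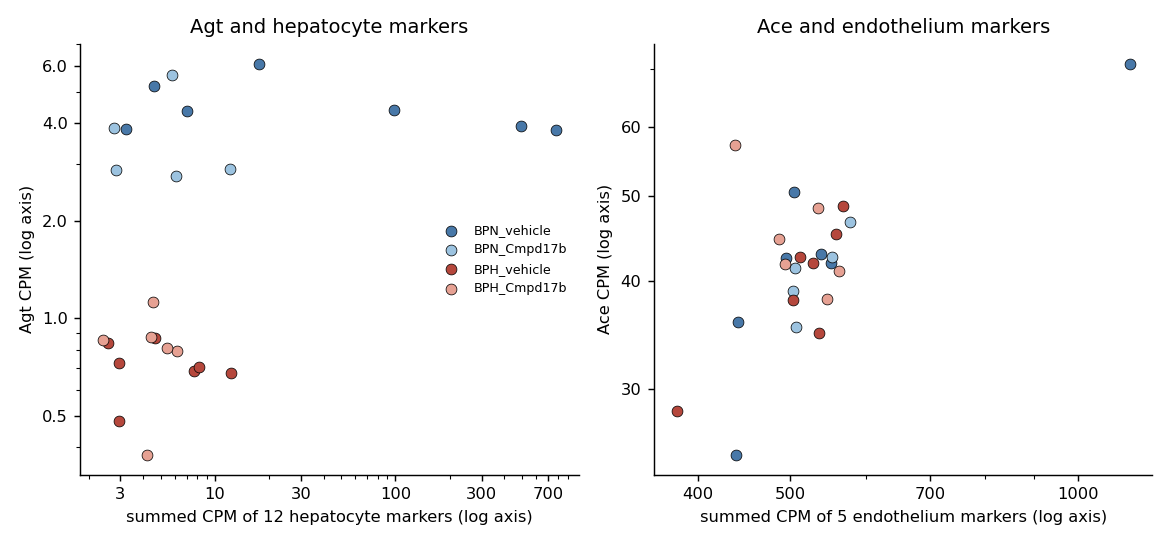
Left, Agt against the summed level of 12 hepatocyte markers; right, Ace against the summed level of 5 endothelial markers, each in CPM on log axes with 1 point per library (25) coloured by group. BPN/3J and BPH/2J points separate on the Agt axis at hepatocyte sums below 20 CPM, the 3 points above are all BPN_vehicle, and 1 BPN_vehicle library stands alone at an endothelial sum of 1133 CPM with 71.0 CPM of Ace.

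No effect of the drug on Agt passed the test. In BPN/3J the log2 difference of Cmpd17b against vehicle was -0.46 ± 0.18 (SE), with a 95% interval of -0.84 to -0.08 and an unadjusted edgeR p of 0.0182. The adjusted p was 0.514, and 3 of the 5 treated libraries lay below all 7 with vehicle. In BPH/2J it was 0.11 ± 0.20 (interval -0.30 to 0.51; edgeR adjusted p = 1.0). The interaction, the drug effect in BPH/2J minus that in BPN/3J, was 0.57 with an interval of 0.02 to 1.12 and an edgeR adjusted p of 0.917. BPN_Cmpd17b has no batch 2 library, so its contrast with vehicle takes the batch effect from the other groups.

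Ren1, the gene of renin itself, was close to undetected. Of 25 libraries, 12 had no Ren1 count, 5 had 1 to 3 counts and 8 had more than 3, with a highest count of 15. A count of 0 allows up to 3 counts, which is 0.0606 to 0.108 CPM depending on the library and covers counting error only. The group means were 0.150 ± 0.185 CPM (SD, n = 7) in BPN_vehicle, 0.0832 ± 0.186 (SD, n = 5) in BPN_Cmpd17b, 0.0608 ± 0.0862 (SD, n = 7) in BPH_vehicle and 0.0433 ± 0.0690 (SD, n = 6) in BPH_Cmpd17b. The groups overlapped fully, since each held libraries at 0. Without the filter, the log2 difference between strains under vehicle was -1.32 (edgeR adjusted p = 0.524), which at these counts depends on the prior count. No difference was detectable at this depth. Kidney transcripts stood beside it at uneven levels. BPN_vehicle replicate 4, with the 15 counts (0.529 CPM), had a kidney marker sum of 118 CPM. BPN_Cmpd17b replicate 1 had the highest kidney sum of the 25 libraries, 155 CPM, and no Ren1 count. Both are single libraries, and the part of kidney transcripts in the Ren1 counts was not tested. The paralogue Ren2 had no row in the table.

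No difference in Atp6ap2, the prorenin receptor, passed the test. The BPN_Cmpd17b libraries had 15.2, 14.8, 15.0, 15.4 and 15.1 CPM. BPN_vehicle ranged from 12.0 to 20.9 CPM (median 14.4), BPH_vehicle from 14.8 to 22.6 (median 15.2) and BPH_Cmpd17b from 13.0 to 20.1 (median 15.4). The highest values were those of batch 2, which spanned 16.1 to 22.6 CPM against 12.0 to 16.2 in batch 1. With batch in the model, the strain difference was 0.13 ± 0.07 under vehicle (SE; interval -0.01 to 0.28; edgeR adjusted p = 0.189) and -0.01 ± 0.08 under Cmpd17b (interval -0.17 to 0.15; adjusted p = 0.948).

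No difference in Ace, the endothelial peptidase that makes angiotensin II and degrades bradykinin, passed the test. Its range was 25.2 to 71.0 CPM in BPN_vehicle (median 42.4), 28.3 to 48.7 in BPH_vehicle (median 41.9) and 38.1 to 57.2 in BPH_Cmpd17b (median 43.2). BPN_Cmpd17b had 42.6, 46.7, 38.9, 35.4 and 41.3 CPM. The groups overlapped throughout. The vehicle strain difference was -0.14 ± 0.14 (SE; interval -0.42 to 0.14; edgeR adjusted p = 0.547), and that under Cmpd17b was 0.21 ± 0.16 (interval -0.12 to 0.54; adjusted p = 0.457). The highest library, at 71.0 CPM, was BPN_vehicle replicate 7 with the high endothelial sum. The next, at 57.2 CPM, was BPH_Cmpd17b replicate 6, whose endothelial sum was 437 CPM, near the low end. Without the first the vehicle difference was 0.00 (edgeR adjusted p = 0.988), and without the second the Cmpd17b difference was 0.06 (adjusted p = 0.855).

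Lnpep was the most variable of the 8 genes tested in the vehicle groups, with a coefficient of variation of 43.1% in BPN_vehicle and 26.7% in BPH_vehicle. In the Cmpd17b groups that of Agt was higher. In BPN_vehicle Lnpep ranged from 4.37 to 22.1 CPM around a median of 14.4, and the lowest value was again replicate 7. BPH_vehicle ranged from 9.72 to 20.7 CPM (median 14.5) and BPH_Cmpd17b from 11.6 to 19.3 (median 14.5). The BPN_Cmpd17b libraries had 12.7, 12.6, 18.4, 19.4 and 19.4 CPM. The strain difference was 0.06 ± 0.24 under vehicle (SE; interval -0.45 to 0.56) and -0.17 ± 0.28 under Cmpd17b (interval -0.74 to 0.40), with edgeR adjusted p of 0.905 and 0.772. Without BPN_vehicle replicate 7 the vehicle difference was -0.11 (adjusted p = 0.759), and without BPH_Cmpd17b replicate 6 that under Cmpd17b was -0.08 (adjusted p = 0.914). These intervals leave room for a change in either direction.

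Agtr1a, the main angiotensin II receptor of the mouse heart, was modestly higher in BPH/2J under vehicle. BPN_vehicle ranged from 18.1 to 39.0 CPM (median 35.5) and BPH_vehicle from 39.1 to 45.3 (median 42.2). All 7 BPH_vehicle libraries lay above all 7 BPN_vehicle libraries, by a narrow margin. How common such separation is among all genes was not counted, so it is a description only. The means were 33.2 ± 7.31 CPM (SD, n = 7) and 42.3 ± 2.11 CPM (SD, n = 7). The log2 difference was 0.35 ± 0.12 (SE), 1.27-fold higher, with a 95% interval of 0.09 to 0.60 (edgeR adjusted p = 0.0476). The call sat at the threshold. Leaving out any 1 of 10 of the 14 libraries ended it. Without BPH_vehicle replicates 1 to 7 in turn, the edgeR adjusted p was 0.0839, 0.0518, 0.0670, 0.0864, 0.0644, 0.0605 and 0.0776. Without BPN_vehicle replicates 2, 3 and 4 it was 0.0541, 0.0907 and 0.0545. The size was 0.39 within batch 1 (edgeR adjusted p = 0.0522) and 0.26 within batch 2 (adjusted p = 0.316). Without BPN_vehicle replicate 7, whose 18.1 CPM was the lowest level, it was 0.24 (adjusted p = 0.0414).

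Under Cmpd17b the Agtr1a groups overlapped. BPN_Cmpd17b had 35.1, 37.2, 34.7, 36.7 and 33.4 CPM. BPH_Cmpd17b ranged from 29.3 to 53.3 CPM (median 42.7). There 5 of 6 libraries lay above all 5 of BPN_Cmpd17b and 1, replicate 6, lay below them all. The log2 difference was 0.27 ± 0.14 (SE; interval -0.02 to 0.56; edgeR adjusted p = 0.234). Without BPH_Cmpd17b replicate 6 and BPN_vehicle replicate 7 it was 0.35 (adjusted p = 0.000578). Within batch 1 it was 0.35 (adjusted p = 0.0998). The drug contrasts of Agtr1a were 0.01 in BPH/2J and 0.09 in BPN/3J in log2, with intervals of -0.25 to 0.27 in BPH/2J and -0.20 to 0.37 in BPN/3J. Fibroblast sums, from cells that carry this receptor, were 616 to 948 CPM in BPN_vehicle and 641 to 768 CPM in BPH_vehicle. Smooth muscle and pericyte sums were 138 to 357 CPM and 180 to 302 CPM in the same groups. Of the 6 markers in each list, no fibroblast marker was called and Kcnj8 was lower in BPH/2J under vehicle; their part in the Agtr1a difference was not tested.

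**Figure D3:**
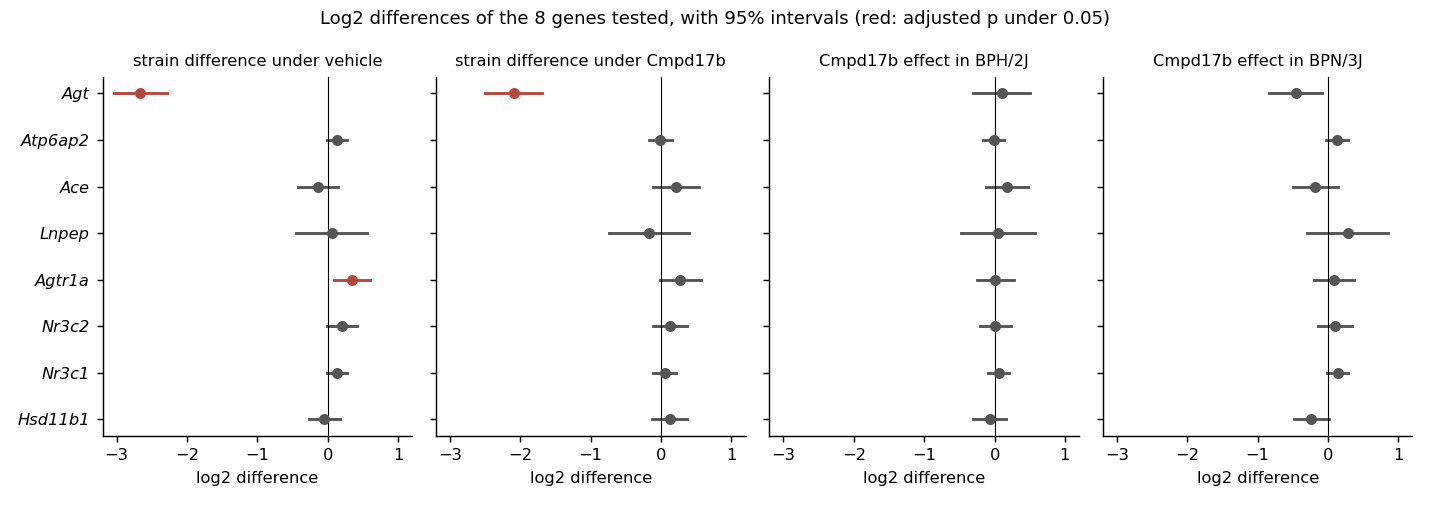
Log2 differences with 95% intervals of the 8 genes tested, for BPH/2J minus BPN/3J under vehicle and under Cmpd17b and for Cmpd17b minus vehicle in each strain. Red marks an adjusted p under 0.05: Agt in both strain panels (-2.66 and -2.09) and Agtr1a under vehicle (0.35); no gene is red in the drug panels.

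The mineralocorticoid receptor gene Nr3c2, through which aldosterone acts, ranged from 9.63 to 18.1 CPM in BPN_vehicle (median 14.6) and from 14.9 to 17.3 CPM in BPH_vehicle (median 16.5). BPN_Cmpd17b had 14.4, 16.5, 14.2, 13.7 and 15.9 CPM, and BPH_Cmpd17b ranged from 13.5 to 18.7 (median 16.3). The BPH_vehicle range lay wholly inside that of BPN_vehicle. The strain difference was 0.21 ± 0.10 under vehicle (SE; interval -0.01 to 0.42; edgeR adjusted p = 0.178). It was called only without BPN_vehicle replicate 5 (0.28, adjusted p = 0.0485), and was 0.13 without BPN_vehicle replicate 7 (adjusted p = 0.300). Under Cmpd17b it was 0.12 ± 0.12 (interval -0.12 to 0.37; adjusted p = 0.589).

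The glucocorticoid receptor gene Nr3c1 was the highest of the 9 in CPM in every group. It ranged from 50.1 to 73.9 CPM in BPN_vehicle (median 59.6), 59.1 to 74.6 in BPH_vehicle (median 66.5) and 63.0 to 79.0 in BPH_Cmpd17b (median 67.1). BPN_Cmpd17b had 63.9, 56.0, 64.6, 68.6 and 70 CPM. The groups overlapped, and batch 2 libraries (65.2 to 79.0 CPM) lay in the upper part of the range of batch 1 (50.1 to 71.8 CPM) or above it. The strain difference was 0.13 ± 0.07 under vehicle (SE; interval -0.01 to 0.27; edgeR adjusted p = 0.213) and 0.05 ± 0.08 under Cmpd17b (interval -0.11 to 0.21; adjusted p = 0.771).

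Hsd11b1 ranged from 17.3 to 23.1 CPM in BPN_vehicle (median 18.4), 13.4 to 21.2 in BPH_vehicle (median 18.7) and 11.4 to 20.6 in BPH_Cmpd17b (median 19.0). The BPN_Cmpd17b libraries had 14.5, 14.5, 20.5, 14.9 and 19.2 CPM, 3 of them below all 7 of BPN_vehicle. The drug contrast in BPN/3J was -0.24 ± 0.12 (SE; interval -0.49 to 0.01), with an unadjusted edgeR p of 0.0633 and an adjusted p of 0.537. The strain differences were -0.05 ± 0.11 (interval -0.27 to 0.17; adjusted p = 0.816) and 0.12 ± 0.12 (interval -0.13 to 0.37; adjusted p = 0.612). The aldosterone synthase gene Cyp11b2, the other adrenal genes Cyp11a1, Cyp11b1, Cyp21a1 and Hsd3b1, and Hsd11b2, which inactivates glucocorticoid next to the mineralocorticoid receptor, were all under the filter.

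Levels were compared between genes as CPM per kilobase of merged exons (GENCODE M21). In BPN_vehicle the order was Agtr1a (11.9 ± 2.61 CPM per kilobase, SD, n = 7), Ace (8.37 ± 2.68), Nr3c1 (7.99 ± 0.963), Atp6ap2 (5.77 ± 1.09), Hsd11b1 (4.41 ± 0.476), Agt (2.39 ± 0.453), Nr3c2 (2.15 ± 0.451), Lnpep (1.01 ± 0.434) and Ren1 (0.0904 ± 0.112). Ace and Nr3c1, and Agt and Nr3c2, were neighbours within their spread. In BPH_vehicle the receptor led again at 15.2 ± 0.756 CPM per kilobase (SD, n = 7). There Agt lay below Nr3c2 (2.48 ± 0.143) and Lnpep (1.04 ± 0.278) to 0.377 ± 0.0667, above Ren1 alone. Transcript ends and mapping of the authors' annotation may differ from these lengths.

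The other genes of the pathway were taken from 5 lists of 71 genes, of which 70 had a row and 57 were tested. Under vehicle 12 of 57 were called (21.1%, against 18.9% of all genes): 5 higher and 7 lower in BPH/2J. Under Cmpd17b 5 of 57 were called (8.77%, against 14.1% of all genes). All 5 were among the 12 and had the same direction: Glul and Rgs2 higher, and Bdkrb2, Enpep and Fkbp4 lower. No gene of the lists was called for the drug or for the interaction. The median log2 difference over the 57 was 0.00 in both strain comparisons. With the kidney-like library included, only Bdkrb2, Glul and Rgs2 of the 12 kept their call under vehicle. For the others the edgeR adjusted p was 0.0511 (Sgk1) to 0.722 (Anpep). That library is in neither vehicle group. It enters the vehicle comparison only through the shared fit, with its common spread, scaling and batch term. A call lost there does not describe the vehicle libraries themselves. Within batch 2 alone Enpep, Fkbp4, Glul and Rgs2 were called under vehicle, and the other 8 were not (adjusted p 0.107 to 0.871). Within batch 1 alone the calls of Agtrap, Sgk1 and Thop1 ended (adjusted p 0.0650, 0.0557 and 0.0569).

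Enpep, the aminopeptidase that turns angiotensin II into angiotensin III, was lower in BPH/2J with no overlap. It ranged from 10.8 to 17.3 CPM in BPN_vehicle (median 14.8) and from 5.59 to 9.63 in BPH_vehicle (median 8.20). The log2 difference was -0.84 ± 0.12 (SE, edgeR adjusted p = 2.9e-06). Without the 3 BPN_vehicle libraries with hepatocyte transcripts it was -0.58 (edgeR adjusted p = 0.00109). It was -0.68 within batch 1 and -1.21 within batch 2, whose BPN_vehicle libraries, replicates 1 and 2, are among those 3. Under Cmpd17b, BPN/3J libraries spanned 14.7 to 19.9 CPM and BPH/2J libraries 6.14 to 8.71 CPM, a difference of -1.12 ± 0.13 (adjusted p = 2.2e-07). With the kidney-like library the differences were -0.76 under vehicle (edgeR adjusted p = 0.404) and -0.33 under Cmpd17b (adjusted p = 0.795).

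Mme, or neprilysin, which makes angiotensin-(1-7) and clears natriuretic peptides, went the other way. It ranged from 6.61 to 10.1 CPM in BPN_vehicle (median 9.28) and from 11.8 to 14.5 in BPH_vehicle (median 13.6), without overlap. The log2 difference was 0.61 ± 0.10 (SE; edgeR adjusted p = 5.4e-05). It was 0.49 within batch 2 (adjusted p = 0.107) and 0.63 with the kidney-like library (adjusted p = 0.404), neither of them called. Under Cmpd17b it was 0.33 ± 0.12 (adjusted p = 0.0574), and it was called there without BPH_Cmpd17b replicate 6 (0.39, adjusted p = 0.0196).

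Enpep and Mme belong to the list of angiotensin processing and receptors, of whose 21 genes 16 could be tested. Under vehicle 2 were higher and 3 lower in BPH/2J, 31.2% against 18.9% of all genes. Under Cmpd17b 1 was called, 6.25% against 14.1%. Agtrap, a protein that promotes internalisation of the type 1 receptor, was higher (0.22 ± 0.08; edgeR adjusted p = 0.0422). The peptidases Anpep (-0.38 ± 0.13; adjusted p = 0.0408) and Thop1 (-0.26 ± 0.08; adjusted p = 0.0255) were lower. The Agtrap call ended without any of BPH_vehicle replicates 1, 2, 3, 4, 5 and 7 or BPN_vehicle replicates 3, 4, 5 and 7 (adjusted p 0.0513 to 0.0862). That of Anpep ended without BPH_vehicle replicates 1, 2, 4 or 5 or BPN_vehicle replicates 3, 4 or 7 (adjusted p 0.0516 to 0.0922). That of Thop1 ended without BPH_vehicle replicates 2, 4 or 6 or BPN_vehicle replicate 6 (adjusted p 0.0535 to 0.0688). The receptors Agtr1b, Agtr2 and Mrgprd and the protease Ctsg were under the filter.

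Downstream of the receptor 2 of 12 genes were called under vehicle (16.7%, against 18.9% of all genes). Rgs2, which shortens Gq signalling and is itself induced by angiotensin II, was higher in BPH/2J without overlap. It ranged from 5.44 to 11.8 CPM in BPN_vehicle (median 7.46) and from 14.2 to 26.3 in BPH_vehicle (median 17.4). The log2 difference was 1.21 ± 0.15 (SE; edgeR adjusted p = 8.2e-07) under vehicle and 1.02 ± 0.18 (adjusted p = 0.000102) under Cmpd17b. Ccn2, a matricellular protein raised in fibrosis, was lower under vehicle (-0.80 ± 0.27; adjusted p = 0.0446), with 61.1 to 194 CPM in BPN_vehicle and 40.2 to 71.2 CPM in BPH_vehicle. Its call ended without any of 9 libraries: BPH_vehicle replicates 1, 2, 3, 5, 6 and 7 and BPN_vehicle replicates 3, 4 and 5 (adjusted p 0.0507 to 0.135, with a difference of -0.50 without BPN_vehicle replicate 3). Under Cmpd17b the Ccn2 difference was -0.01 (adjusted p = 0.990). It was -0.34 without BPH_Cmpd17b replicate 6 (edgeR adjusted p = 0.430), and -0.34 and called when only the groups compared were fitted (adjusted p = 0.0188). In that fit the batch term covered replicate 6 alone, so the same library was left out in effect. The other 10 genes of this list, among them Cybb and Nox4, were not called in the strain comparison under vehicle.

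In the kinin system, which shares Ace as its degrading enzyme, 3 of 6 genes were tested. The bradykinin receptor gene Bdkrb2 was lower in BPH/2J at low levels, 1.28 ± 0.774 CPM (SD, n = 7) in BPN_vehicle and 0.472 ± 0.182 CPM (SD, n = 7) in BPH_vehicle. The log2 difference was -1.42 ± 0.33 (SE; edgeR adjusted p = 0.00220), and 6 of 7 BPH/2J libraries lay below every BPN/3J library. Under Cmpd17b it was -1.27 ± 0.38 (adjusted p = 0.0209), a call that ended without BPH_Cmpd17b replicate 5 (adjusted p = 0.0530) or BPN_Cmpd17b replicate 3 (adjusted p = 0.0589). Kng1, Bdkrb1 and Klkb1 were under the filter.

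Of the corticosteroid genes, 1 of 6 tested in synthesis, metabolism and receptor chaperones (16.7%) and 3 of 20 response genes (15.0%) were called under vehicle, against 18.9% of all genes. Fkbp4, a co-chaperone of steroid receptors, was lower in BPH/2J: 301 ± 42.9 CPM (SD, n = 7) in BPN_vehicle and 231 ± 15.0 CPM (SD, n = 7) in BPH_vehicle (-0.39 ± 0.10; edgeR adjusted p = 0.00856). Under Cmpd17b its difference was -0.53 ± 0.12 (adjusted p = 0.00185). Without the 3 libraries with hepatocyte transcripts the vehicle value was -0.24 (adjusted p = 0.188). Glul, glutamine synthetase, was higher without overlap, with 90.9 to 223 CPM in BPN_vehicle and 336 to 455 CPM in BPH_vehicle. Its log2 difference was 1.08 ± 0.14 under vehicle (adjusted p = 1.2e-06) and 1.08 ± 0.16 under Cmpd17b (adjusted p = 1.4e-05).

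Pdk4, a brake on glucose oxidation induced by glucocorticoids and by fasting, was higher under vehicle (1.27 ± 0.33 SE; edgeR adjusted p = 0.00723). It had 175 ± 47.7 CPM (SD, n = 7) in BPN_vehicle and 433 ± 197 CPM (SD, n = 7) in BPH_vehicle, with overlap. Within batch 2 the difference was 0.16 (adjusted p = 0.813), and under Cmpd17b it was -0.18 ± 0.37 (adjusted p = 0.829), or -0.43 without BPH_Cmpd17b replicate 6 (adjusted p = 0.526). The interaction of strain and drug was -1.45 ± 0.50 for Pdk4 (unadjusted p = 0.00884, adjusted p = 0.917) and 0.79 ± 0.42 for Ccn2 (adjusted p = 0.917). Sgk1, a kinase gene induced by both aldosterone and glucocorticoid, was lower in BPH/2J under vehicle (-0.42 ± 0.12; adjusted p = 0.00922), with 30.2 to 60.3 CPM in BPN_vehicle and 25.5 to 34.6 CPM in BPH_vehicle. It was -0.42 within each batch, where it was not called (adjusted p = 0.0557 in batch 1 and 0.107 in batch 2), and with the kidney-like library (adjusted p = 0.0511). Without BPN_vehicle replicate 7 it was -0.27 (adjusted p = 0.0126). Under Cmpd17b it was -0.33 ± 0.13 (adjusted p = 0.0995) and was called without BPN_Cmpd17b replicate 5 (-0.43, adjusted p = 0.0298). The other 17 corticosteroid response genes tested, Tsc22d3, Fkbp5 and Per1 among them, were not called in the strain comparison under vehicle.

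**Figure D4:**
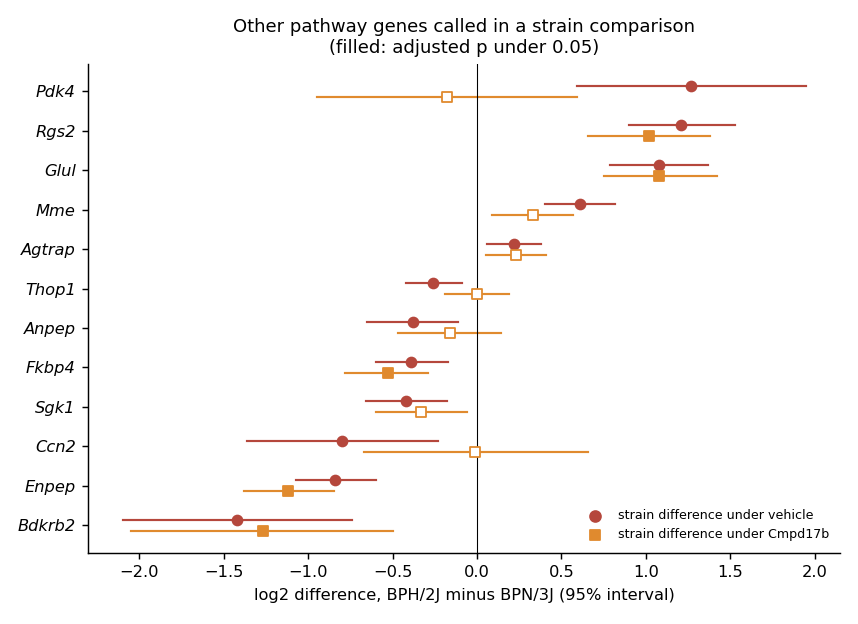
Log2 differences (BPH/2J minus BPN/3J, 95% intervals) of the 12 other pathway genes called in a strain comparison, under vehicle (circles) and under Cmpd17b (squares); filled symbols have an adjusted p under 0.05. Rgs2, Glul, Fkbp4, Enpep and Bdkrb2 are filled in both; Pdk4 (1.27 and -0.18) and Ccn2 (-0.80 and -0.01, or -0.34 without BPH_Cmpd17b replicate 6) are filled under vehicle only, and their difference between treatments did not pass its test.

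The genes whose levels followed Agt most closely over the 25 libraries were Phkg1 (Pearson r = 0.97), Abca4 (0.96) and Ubb (0.96), among 11019 genes compared. For Agtr1a they were Lmo7 (0.94), Kcnj5 (0.94) and Tspyl4 (0.91), among 11018. These correlations are descriptions over libraries that share the strain difference and the batches. Among the 8 genes themselves, the levels of Agtr1a and Nr3c2 were the closest pair (r = 0.83 over 25 libraries and 0.78 after group means were removed). BPN_vehicle replicate 7 was the lowest of the 25 libraries in both (18.1 and 9.63 CPM). BPH_Cmpd17b replicate 6 was the lowest of its group in both (29.3 and 13.5 CPM). The part of these libraries in the correlation was not tested. Ace ran against Agtr1a (r = -0.58 and -0.72), with BPN_vehicle replicate 7 and BPH_Cmpd17b replicate 6 at the ends of both genes.

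The 5 nearest tested protein-coding genes on each side of Agt and Agtr1a in RefSeq order (GRCm38.p6) were read for the strain difference under vehicle. This set was chosen after their values were seen, and it skips genes that were not tested or not protein-coding. Beside Agt 2 of 10 were called, in opposite directions. They were 2310022B05Rik, the nearest of the set on 1 side (0.76, edgeR adjusted p = 1.1e-08), and Ttc13, the next of the set (-0.76, adjusted p = 3.3e-08). Cog2, the nearest of the set on the other side, had a difference of 0.10 (edgeR adjusted p = 0.412). Beside Agtr1a 1 of 10 was called, Sox4 (0.49; adjusted p = 0.00642). Both shares are near or below the 18.9% of all genes.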

How the data were processed

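Left ventricle polyadenylated RNA was prepared with an Aurum kit and the VAHTS Universal V8 kit and sequenced on a NovaSeq6000, per the labels' protocols. The submitters' processing notes name Trim Galore 0.6.7, STAR 2.7.9a and the mouse build GRCm39 (mm39). Which counter and annotation were used, and whether strand was read, is not given in the sources used here, which leaves genes that overlap or have near copies uncertain. The values deposited by the authors are expected counts (estimated counts per gene, 40413 genes). Whole numbers made up 93.3% of them, 2.21% were off by more than 0.01, and all were rounded before testing.

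Groups came from strain and treatment labels, and replicates were numbered in sample order. The 67 pairs of libraries within groups held no identical pair. One library with a kidney-like profile was left out. Genes were kept by filterByExpr on the 4 groups (count minimum 10), scaled by TMM and tested by edgeR 4.0.16 under R 4.3.3 (quasi-likelihood, robust) in 1 fit of 25 libraries with a coefficient per group and a batch term. Benjamini-Hochberg adjustment ran over 15543 genes in each of 5 contrasts, with a threshold of 0.05. Each SE was taken as |log2 difference|/√F, with 95% intervals from it. Likeness used tested genes whose mean log2 CPM (prior count 2) was 1 or more. P-values set each difference against the spread between these libraries, estimated over the 4 groups together. Named genes are the 9, every other listed pathway gene called in a contrast, examples not called and listed genes under the filter. The genes and lists were chosen with earlier results of these data known, so they are not independent evidence.

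Alternatives were RLE size factors, DESeq2 1.42.0, limma 3.58.1 voom with quality weights, other filters, no batch term, each batch, other sets of libraries and leaving out each library. For the pathway genes they were chosen after seeing the data. On simulated counts with 196 to 199 genes changed 2-fold, the fit recovered 84.4% (strain, vehicle, 15354 genes) and 80.9% (strain, Cmpd17b, 15356). For the drug it recovered 81.1% (BPH/2J, 15323) and 77.3% (BPN/3J, 15365). Unchanged genes called numbered 5, 6, 5 and 5. The simulated counts had no batch effect and no library that stood apart, so these shares apply only to 2-fold changes in such counts.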

Additional observations from a re-analysis of the deposited data

Results flagged for a closer look

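Of 32 sets of a gene in a group, 3 had a library far from the rest, where chance gives about 5 in 100. Atp6ap2 stood at 22.6 CPM in BPH_vehicle replicate 7, a batch 2 library, against 14.8 to 17.7 CPM in the other 6. Nr3c1 stood at 79.0 CPM in BPH_Cmpd17b replicate 6, the only batch 2 library used in its group, against 63.0 to 68.7 CPM. Hsd11b1 stood at 23.1 CPM in BPN_vehicle replicate 7, against 17.3 to 18.9 CPM. None of the 3 genes was called in any comparison.

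In the kidney-like library labelled BPH_Cmpd17b replicate 7, which the comparisons do not use, 6 of the 9 genes lay above every other library, as CPM of total counts without TMM. Ren1 was at 74.6 CPM, against 0 to 0.526 in the others. Agt was at 26.9 (others 0.460 to 5.99), Atp6ap2 at 103 (12.3 to 24.4), Ace at 261 (26.5 to 72.9), Nr3c1 at 106 (51.4 to 96.0) and Hsd11b1 at 58.1 (13.8 to 23.7).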

How the results depend on the processing

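The strain difference in Agt kept its call in all 26 alternatives under vehicle and in 21 of 22 under Cmpd17b; with all 26 libraries the latter was -1.0. Agtr1a under vehicle was called in 10 of 26. It was not called with RLE size factors (0.34), no filter (0.35), batch 1 (0.39) or 2 (0.26) alone, all 26 libraries (0.34) or only the groups compared (0.35). The count of the 9 genes called under vehicle was then 1. It was 1 to 3 when 1 library was left out, with 3 without BPN_vehicle replicate 5, where Nr3c2 joined Agt and Agtr1a. Under Cmpd17b it was 0 with all 26 libraries. It was 2 with voom, with 23 libraries (without BPN_vehicle replicate 7 and BPH_Cmpd17b replicate 6) and with only the groups compared. Agtr1a joined Agt in each. With only the groups compared, the batch term covered BPH_Cmpd17b replicate 6 alone, so that library was left out in effect there too. Over all genes, the vehicle comparison called 1130 in batch 2 alone and 1492 with all 26 libraries. The kidney-like library is in neither vehicle group and enters that comparison through the shared fit alone. The Cmpd17b comparison called 3405 with voom and 1195 with all 26. The drug called 122 genes in BPH/2J in batch 2 alone and 1 in BPN/3J with DESeq2. The causes were not tested. No paired analysis was possible because the labels give no shared replicate numbers.

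Signs turned only for differences that were not called in the fit reported. Under vehicle, batch 2 alone gave Ace 0.06 and Lnpep -0.32. Lnpep was -0.18 with voom and -0.09 with 23 libraries. Hsd11b1 was 0.02 with voom, 0.03 in batch 1, 0.05 with 22 libraries (without BPN_vehicle replicates 1, 2 and 4) and 0.01 with 23. Under Cmpd17b, Atp6ap2 was 0.07 with no batch term and 0.27 with all 26 libraries, Anpep was 0.59 with all 26, and Ccn2 was 0.16 with no batch term. For the drug in BPH/2J, batch 2 alone set 1 treated library, BPH_Cmpd17b replicate 6, against 2 with vehicle. It gave Agt -0.66, Lnpep -0.39, Agtr1a -0.58 and Nr3c2 -0.35. All 26 libraries gave Atp6ap2 0.39, Lnpep -0.14, Agtr1a -0.06, Nr3c2 -0.05 and Hsd11b1 0.22. Ace was -0.02 in batch 1 and -0.03 with 23 libraries, where Hsd11b1 was 0.04. Agtr1a was -0.02 with 22 libraries and with only the groups compared. For the drug in BPN/3J, voom gave Agtr1a -0.03 and Nr3c2 -0.01. The interaction was 0.13 for Atp6ap2 with all 26 libraries. With voom and 23 libraries it was 0.06 and 0.01 for Lnpep, 0.11 and 0.11 for Agtr1a and 0.07 and 0.03 for Nr3c2.

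With 1 library left out at a time, the ranges that crossed 0 were, for the strain difference, Lnpep -0.11 to 0.21 under vehicle and, under Cmpd17b, Atp6ap2 -0.04 to 0.03, Nr3c1 0.00 to 0.08 (below 0 before rounding), Ccn2 -0.34 to 0.11, Pdk4 -0.43 to 0.06 and Thop1 -0.05 to 0.05. For the drug in BPH/2J they were Atp6ap2 -0.04 to 0.02, Ace -0.05 to 0.23, Lnpep -0.04 to 0.18, Agtr1a -0.06 to 0.14, Nr3c2 -0.03 to 0.09 and Hsd11b1 -0.12 to 0.04. Agtr1a spanned -0.04 to 0.14 for the drug in BPN/3J and -0.15 to 0.04 for the interaction. Depth limits Ren1 throughout, and Agt in BPH/2J rests on 13 to 43 counts per library.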
